A study of Mus musculus with 12 samples.

Results

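Chemokine and chemokine receptor genes were taken as all genes whose symbol starts with Ccl, Cxcl, Cx3cl, Xcl, Ccr, Cxcr, Cx3cr or Xcr followed by a number, and that had at least 1 probe set annotated to that gene alone. The rule found 49 genes, 34 ligands and 15 receptors, among the 17097 genes measured, with 73 probe sets between them. The RNA came from livers of male mice that carried Pml (Pml-WT, wild type) or lacked it (Pml-KO, knockout), Pml being the gene of the protein that organises PML nuclear bodies. Mice of each genotype ate a control diet with 10% of calories from fat (low-fat) or a diet with 60% (high-fat) for 20 weeks, and all were fasted for 8 h before tissue was collected. Each of the 4 groups gave 3 liver extracts from its 8 mice, and each extract was read on its own array, so 12 arrays were used. The strain, the age of the mice and the design of the knockout allele are not given in the sources used here, nor is it stated outright that each extract came from its own mouse. Each extract is called a liver here for brevity, and p-values measure the spread between these extracts. The series is titled for PPAR signalling and fatty acid oxidation, and its design compares genotypes on each diet and diets in each genotype.

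Chemokines are small secreted proteins that direct the movement of white blood cells by binding G protein-coupled receptors on them, and they are grouped into CC, CXC, CX3C and XC families by the spacing of conserved cysteines. In liver they are made by hepatocytes, Kupffer cells, sinusoidal endothelium and stellate cells, while most of the receptors sit on immune cells, which are a small part of the tissue. Cxcl9, Cxcl10 and Cxcl11 are induced by interferons and attract activated T cells and NK cells through Cxcr3. Cxcl1 is induced through NF-kB and attracts neutrophils through Cxcr2.

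Arrays within a group correlated at a Pearson r of 0.990 to 0.995 over the probe sets, which are no replicates of each other, and array medians lay between 3.936 and 3.996 on the log2 scale. Pml had a log2 signal of 4.92 to 5.40 in the 6 wild-type livers and of 3.04 to 3.82 in the 6 knockout livers, so every knockout lay below every wild type. The position of the Pml probe set relative to the deleted part is not known here. All 8 hepatocyte markers were well measured, and the mean log2 signal over the 8 was at least 12.7 in every liver. Single markers went as low as 10.85 (Hnf4a in wild-type low-fat replicate 1). The mean of the macrophage and Kupffer cell markers was lowest in knockout low-fat replicate 2 (5.02) and knockout high-fat replicate 3 (5.60), against 6.11 to 7.01 in the other 10 livers.

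In the livers studied, 3 CXC ligands stood higher in every knockout liver on the high-fat diet than in any of the other 9 livers. These were Cxcl9, Cxcl10 and Cxcl1, or 6.12% of members, a pattern found in 1.18% of all genes. The comparison was chosen after their values were seen. Cxcl1 cleared the other livers by little, at 7.005 in the lowest knockout high-fat liver against 7.0 in knockout low-fat replicate 3. Cxcl9 had a 5.14-fold higher mean signal in knockout than in wild-type high-fat livers (3.41-fold without the brightest knockout, replicate 1) and Cxcl1 a 1.79-fold higher one. Cxcl10 was 1.23 higher on the log2 scale, against wild-type livers whose signal was at background, so no fold of its RNA is given. Across the whole array, however, limma's test with Benjamini-Hochberg adjustment called none of these genotype differences at an adjusted p of 0.05. Cxcl10 rose with the high-fat diet in knockout livers in a fit that kept dim genes. Most other members stood near background or differed between groups by less than their spread.

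Near background here means a mean signal over the 12 arrays among the dimmest 40% of genes, which put 6839 genes under a log2 signal of 4.08 and left 10258 genes for testing. By this rule 18 of the 49 members (36.7%) were measured above background, against 60.0% of all genes. They comprised 16 of 34 ligands and 2 of 15 receptors. The ligands above background were Ccl9, Cxcl12, Cxcl9, Cxcl1, Ccl6, Cxcl16, Ccl19, Xcl1, Cx3cl1, Cxcl13, Ccl25, Ccl27a, Cxcl15, Ccl21b, Ccl24 and Ccl17. The receptors were Ccr9 and Cxcr2. The members closest to the limit from above were Ccl17 at 4.10 and Cxcr2 at 4.11, and those closest from below were Cxcl11 at 4.04 and Ccl8 at 4.003. Signals of different probe sets depend on the probes as well as on the RNA, so their order says little about the order of RNA amounts.

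A second reading used the 39 olfactory receptor genes on the array as a stand-in for background signal. Their median log2 signal was 3.22 and their 95th percentile 3.90. Of the 49 members, 20 had a mean above 3.90 in all 4 groups and 18 had a mean below it in all 4. All 18 members above background by the main rule belonged to the first set, together with Ccl8 and Ccr4. The 18 members below in every group were the ligands Cxcl14, Ccl3, Ccl2, Ccl12, Cxcl2, Ccl11 and Cxcl5 and the receptors Ccr10, Ccr6, Xcr1, Cxcr6, Ccr1l1, Cxcr5, Cxcr3, Cx3cr1, Ccr8, Ccr1 and Ccr3. Ccl2, the main attractant of monocytes, was thus near background in all 4 groups, with signals between 3.23 and 3.73. Cxcl10 had the widest gap between group means among the 31 members under the filter, being below 3.90 in 3 groups and at 4.71 ± 0.405 (SD, n = 3) in knockout high-fat livers.

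**Figure D1:**
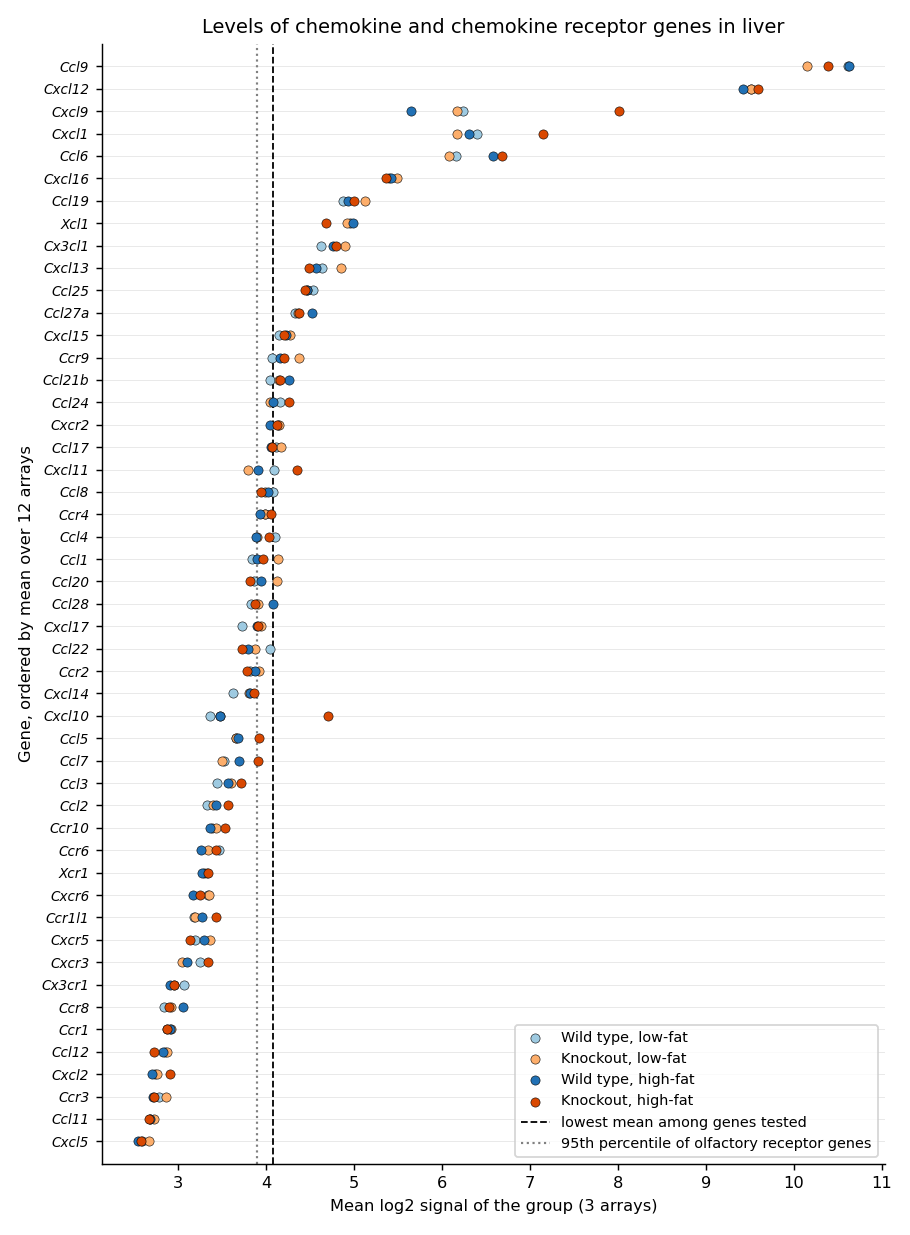
Mean log2 signal of each of the 49 genes in each of the 4 groups (points, 3 arrays each), ordered by the mean over 12 arrays, with the lowest mean among tested genes (4.08, dashed) and the 95th percentile of olfactory receptor genes (3.90, dotted). The point of the knockout high-fat group stands clear of the other groups for Cxcl9, Cxcl1 and Cxcl10, while most genes lower in the list cluster near the 2 lines or below them.

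Of the 3 ligands of Cxcr3, Cxcl9 and Cxcl10 stood higher in the knockout high-fat livers than in all other livers, and Cxcl11 did not. Cxcl9, Cxcl10 and Cxcl11 follow each other among the members on chromosome 5. The stretches of 250 bases before the transcription starts of Cxcl9, Cxcl10 and Cxcl1 are shown from RefSeq (GRCm38.p6), 5′ to 3′ in the direction of transcription. These 3 genes were higher in every knockout high-fat liver than in all other livers, Cxcl1 by little. Interferon and NF-kB are known to act through motifs in such stretches. Capitals mark matches to the interferon-stimulated response element (ISRE, GAAA, then any 2 bases, then GAAA) or to the NF-kB consensus, searched on both strands. The interferon-gamma activated site (GAS, TTCNNNGAA) was also searched.
Cxcl9, chr5:92328080-92328329, minus strand: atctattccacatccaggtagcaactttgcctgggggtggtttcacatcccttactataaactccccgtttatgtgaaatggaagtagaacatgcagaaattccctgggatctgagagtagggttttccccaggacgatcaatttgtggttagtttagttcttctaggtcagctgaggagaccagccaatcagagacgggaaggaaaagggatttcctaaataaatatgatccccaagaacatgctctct
Cxcl10, chr5:92348890-92349139, minus strand: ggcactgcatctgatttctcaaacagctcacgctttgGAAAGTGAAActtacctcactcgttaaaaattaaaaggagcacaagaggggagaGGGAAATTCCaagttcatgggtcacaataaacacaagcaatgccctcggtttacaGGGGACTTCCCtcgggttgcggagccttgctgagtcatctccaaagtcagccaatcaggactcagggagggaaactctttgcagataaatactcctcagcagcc
Cxcl1, chr5:90890995-90891244, plus strand: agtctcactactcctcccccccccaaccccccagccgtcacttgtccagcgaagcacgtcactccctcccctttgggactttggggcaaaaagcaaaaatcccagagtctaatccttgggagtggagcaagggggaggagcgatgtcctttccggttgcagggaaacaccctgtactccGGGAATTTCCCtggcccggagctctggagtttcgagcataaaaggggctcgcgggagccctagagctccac

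The Cxcl10 stretch held 1 ISRE match, 213 to 204 bases before the start, and 3 NF-kB matches, at 159 to 150 bases and at the overlapping positions 104 to 95 and 103 to 94. The Cxcl1 stretch held 2 overlapping NF-kB matches, at 71 to 62 and 70 to 61 bases before the start, and no ISRE. The Cxcl9 stretch held none of the 3 motifs, which says only that these letters are not in this window. Among 32851 promoters of the same length, 2.98% held an ISRE match, 7.02% a GAS match and 7.25% an NF-kB match. Of the 37 members with a promoter in the table, 3 held an ISRE match (Ccl19, Cxcl10 and Cxcl14), 4 a GAS match and 9 an NF-kB match. A match describes the sequence and is no evidence of a bound factor in these livers.

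Cxcl9 had log2 signals of 6.60, 5.95 and 6.17 in wild-type low-fat livers, 6.45, 5.31 and 6.77 in knockout low-fat, 6.004, 5.34 and 5.60 in wild-type high-fat, and 9.19, 7.98 and 6.85 in knockout high-fat livers. All 3 knockout high-fat livers exceeded the other 9, the lowest of them by little, and the 3 remaining groups overlapped. The group means were 6.24 ± 0.330 (SD, n = 3), 6.17 ± 0.767, 5.65 ± 0.335 and 8.01 ± 1.17 in the same order, so the group with the highest mean also had the largest spread. On the high-fat diet knockout exceeded wild type by 2.36 (SE 0.490, 95% interval 1.30 to 3.42, limma's unadjusted p = 0.000376 and adjusted p = 0.643). When each array was left out in turn, this difference ran from 1.77 without knockout high-fat replicate 1 (limma's adjusted p = 0.598) to 2.94 without knockout high-fat replicate 3 (adjusted p = 0.0678), and it passed in none of these fits. Replicate 3, the lowest of its group for Cxcl9, was also the lowest of it for the macrophage markers. Without it and knockout low-fat replicate 2, the other liver low in those markers, the difference was 2.94 (limma's adjusted p = 0.0149), a rise in size that follows from leaving out the lowest Cxcl9 value of the group. On the low-fat diet the difference was -0.06 (SE 0.490, 95% interval -1.13 to 0.998, limma's adjusted p = 0.987).

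Within knockout livers, Cxcl9 was 1.84 higher on the high-fat than on the low-fat diet (SE 0.490, limma's adjusted p = 0.0650), and within wild-type livers it differed by -0.59 (SE 0.490, adjusted p = 0.806). The difference between these diet effects was 2.43 (SE 0.692, 95% interval 0.924 to 3.93, limma's unadjusted p = 0.00413 and adjusted p = 0.802). These contrasts share the knockout high-fat livers and so are not separate evidence. Without knockout high-fat replicate 3 the diet effect in knockouts was 2.41 (limma's adjusted p = 0.0238) and without knockout low-fat replicate 3 it was 2.13 (adjusted p = 0.0486). Without knockout high-fat replicate 1 it was 1.24 (limma's adjusted p = 0.143) and without knockout low-fat replicate 2 it was 1.40 (adjusted p = 0.175). Thus 1 library decides whether this difference passes.

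Cxcl10 had log2 signals of 3.28, 3.35 and 3.47 in wild-type low-fat livers, 3.35, 3.36 and 3.72 in knockout low-fat, 3.65, 3.26 and 3.51 in wild-type high-fat, and 5.06, 4.80 and 4.27 in knockout high-fat livers. The knockout high-fat livers lay above all others, which were near background throughout. Its mean over all arrays, 3.76, put it under the filter, so it was tested only in the fit of all 17097 genes. There it rose by 1.23 with the high-fat diet in knockout livers (SE 0.177, 95% interval 0.853 to 1.61, limma's adjusted p = 0.00411) and by 0.67 as the mean of both genotypes (SE 0.125, limma's adjusted p = 0.0126), while in wild-type livers alone it differed by 0.11 (SE 0.177, adjusted p = 0.937). In that fit 1.29% of all genes passed for the diet in knockouts and 2.25% for the mean of both genotypes.

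Between genotypes on the high-fat diet, Cxcl10 differed by 1.23 (SE 0.177, limma's adjusted p = 0.0585), where 0.00585% of all genes passed, and on the low-fat diet by 0.11 (SE 0.177, adjusted p = 0.915). Without knockout high-fat replicate 3, the lowest of its group, the difference on the high-fat diet was 1.46 and passed (limma's adjusted p = 0.00272). This liver was also the lowest of its group for the macrophage markers (5.60). Without knockout high-fat replicate 1, the highest, the difference was 1.06 (limma's adjusted p = 0.264), and without wild-type high-fat replicate 2 it was 1.13 (adjusted p = 0.589). The difference between the diet effects was 1.13 (SE 0.250, limma's adjusted p = 0.866). Since the comparison groups sat at background, these differences are differences of signal and may understate the change in RNA.

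Cxcl11 lay just under the filter. Its log2 signals were 3.97, 4.53 and 3.77 in wild-type low-fat livers, 3.96, 3.33 and 4.08 in knockout low-fat, 3.89, 4.04 and 3.79 in wild-type high-fat, and 4.58, 4.22 and 4.27 in knockout high-fat livers. The knockout high-fat livers exceeded both the wild-type high-fat and the knockout low-fat livers, but wild-type low-fat replicate 2 reached into their range. Knockout minus wild type on the high-fat diet was 0.45 (SE 0.209, limma's adjusted p = 0.978) in the fit of all genes. A dimmer probe set of Cxcl11 gave -0.09 for the same difference, so its 2 probe sets did not share a direction. The dimmer one had a mean of 2.84, below the olfactory receptor median of 3.22, so its direction says little.

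Cxcr3, the receptor of these ligands, stayed near background in all groups. Its log2 signals were 3.22, 3.26 and 3.27 in wild-type low-fat livers, 3.20, 2.99 and 2.94 in knockout low-fat, 3.04, 3.17 and 3.09 in wild-type high-fat, and 3.28, 3.26 and 3.49 in knockout high-fat livers. Knockouts lay below wild types when fed low-fat and above them when fed high-fat, without overlap in either case. The differences were small, -0.21 and 0.24 (both SE 0.0915), and neither passed (limma's adjusted p = 0.632 and 0.978).

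**Figure D2:**
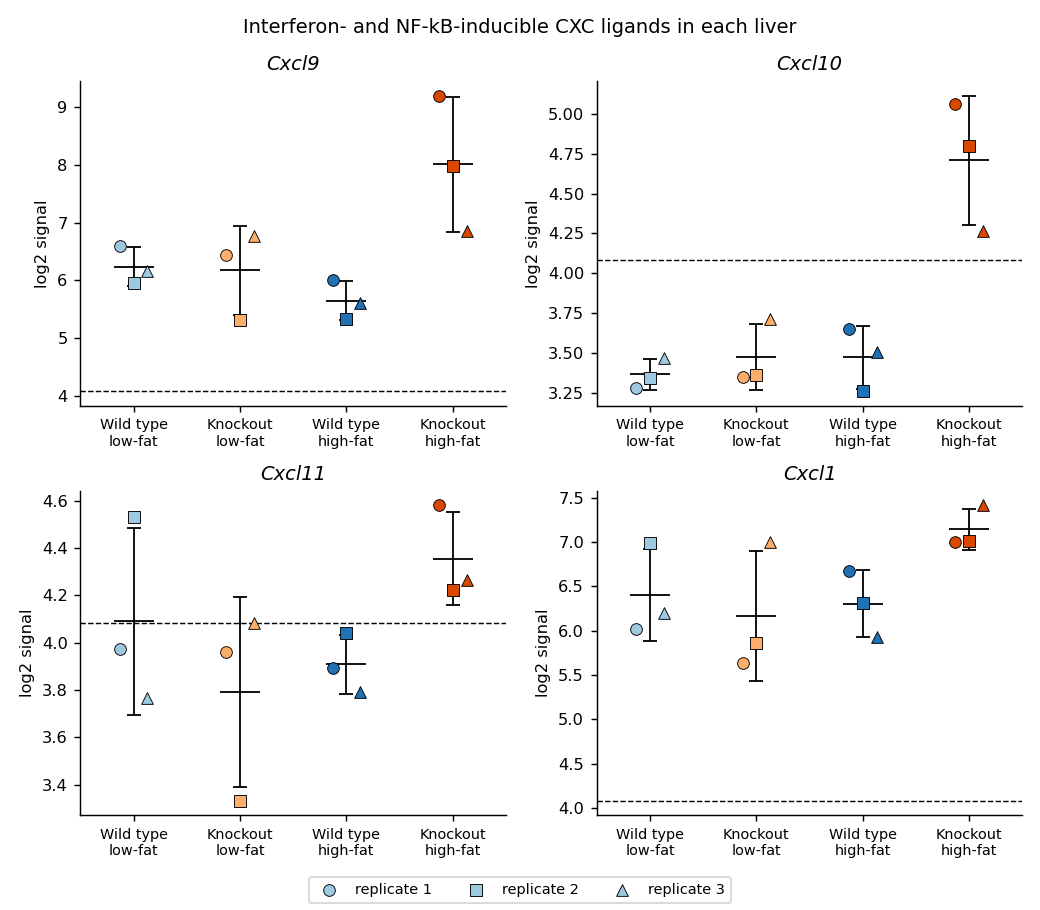
Log2 signal (vertical axes, each with its own range) of Cxcl9, Cxcl10, Cxcl11 and Cxcl1 in each of the 12 livers by group, with the group mean and SD as bars and the lowest mean among tested genes (4.08) as a dashed line. Knockout high-fat livers lie above all other livers for Cxcl9, Cxcl10 and Cxcl1, and for Cxcl11 wild-type low-fat replicate 2 reaches into their range.

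Of the neutrophil-attracting CXC ligands, Cxcl1 and Cxcl15 were above background and Cxcl2 and Cxcl5 were not. Cxcl1 had log2 signals of 6.02, 6.99 and 6.20 in wild-type low-fat livers, 5.63, 5.86 and 7.0 in knockout low-fat, 6.68, 6.32 and 5.93 in wild-type high-fat, and 7.01, 7.01 and 7.42 in knockout high-fat livers. The knockout high-fat livers lay above the rest, although 1 liver of each low-fat group came within a small margin of them. Cxcl1 was 0.84 higher in knockout than in wild-type high-fat livers (SE 0.337, 95% interval 0.105 to 1.57, limma's adjusted p = 0.996) and 0.98 higher in high-fat than in low-fat knockout livers (SE 0.337, adjusted p = 0.136). On the low-fat diet the genotypes differed by -0.24 (SE 0.337, limma's adjusted p = 0.893). Without knockout low-fat replicate 3, the brightest of its group, the diet difference in knockouts was 1.40 and passed (limma's adjusted p = 0.0210). Without knockout low-fat replicate 1, the dimmest, it was 0.71 (limma's adjusted p = 0.353), and without knockout low-fat replicate 2 and knockout high-fat replicate 3 together it was 0.69 (adjusted p = 0.506). Cxcl15, a mouse ligand known from lung, ranged from 4.04 to 4.51 in all livers. Cxcl2 and Cxcl5, which share the receptor Cxcr2 with Cxcl1, had signals of at most 2.98 and 2.71.

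Among the homeostatic and other CXC ligands, Cxcl12 was bright in every liver. Cxcl12, which holds blood cell progenitors and lymphocytes in place through Cxcr4, had log2 signals of 9.31, 9.80 and 9.43 in wild-type low-fat, 9.85, 9.38 and 9.31 in knockout low-fat, 9.62, 9.49 and 9.15 in wild-type high-fat, and 9.67, 9.43 and 9.66 in knockout high-fat livers. The 4 groups overlapped throughout, and the difference between genotypes on the high-fat diet was 0.17 (SE 0.167, 95% interval -0.194 to 0.531, limma's adjusted p = 0.996). Cxcl16, a membrane-bound ligand of Cxcr6, read 5.42, 5.46 and 5.34 in wild-type low-fat, 5.52, 5.13 and 5.81 in knockout low-fat, 5.33, 5.37 and 5.55 in wild-type high-fat, and 5.59, 5.45 and 5.07 in knockout high-fat livers. Its group means, from 5.37 to 5.49, lay closer together than the livers within the knockout groups. Cxcl13, which draws B cells into follicles through Cxcr5, read 4.40, 4.56 and 4.97 in wild-type low-fat, 4.91, 4.37 and 5.27 in knockout low-fat, 4.23, 4.24 and 5.22 in wild-type high-fat, and 4.48, 4.70 and 4.28 in knockout high-fat livers. The groups overlapped, and high-fat minus low-fat diet in knockouts was -0.36 (SE 0.278, limma's adjusted p = 0.552). Its dimmer probe set gave -0.66 for knockout minus wild type on the high-fat diet where the brighter gave -0.07. That probe set read 3.73, 3.65 and 5.63 in the wild-type high-fat livers, and without replicate 3 of this group its difference was -0.01. Cxcl14 and Cxcl17 were near background.

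The monocyte-attracting CC ligands held the brightest member, Ccl9, a mouse ligand of Ccr1. Ccl9 had log2 signals of 10.79, 10.43 and 10.63 in wild-type low-fat livers, 9.98, 9.98 and 10.48 in knockout low-fat, 10.81, 10.42 and 10.65 in wild-type high-fat, and 10.56, 10.28 and 10.34 in knockout high-fat livers. On the low-fat diet 2 knockout livers lay below all wild types and the other within their range, and on the high-fat diet the genotypes overlapped. Knockout minus wild type was -0.47 on the low-fat diet (SE 0.145, 95% interval -0.782 to -0.152, limma's unadjusted p = 0.00711 and adjusted p = 0.436), -0.23 on the high-fat diet (SE 0.145, adjusted p = 0.996) and -0.35 as the mean of both diets (SE 0.103, adjusted p = 0.596). A second Ccl9 probe set gave -0.44 and -0.09 for the respective diets.

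Ccl6, a mouse CC ligand made by macrophages and other myeloid cells, had log2 signals of 6.39, 6.23 and 5.86 in wild-type low-fat livers, 6.83, 5.42 and 5.98 in knockout low-fat, 6.68, 6.63 and 6.43 in wild-type high-fat, and 7.29, 6.64 and 6.11 in knockout high-fat livers. In wild types the high-fat livers lay above the low-fat livers without overlap, and in knockouts the diets overlapped. High-fat minus low-fat diet was 0.42 in wild type (SE 0.328, limma's adjusted p = 0.797), 0.60 in knockout (SE 0.328, adjusted p = 0.361) and 0.51 as the mean of both (SE 0.232, adjusted p = 0.245). The difference in knockouts ran from 0.28 to 0.98 when each array was left out. Macrophage and Kupffer cell markers moved with Ccl6 between the diets. In wild type 11 of 11 were higher on the high-fat diet, with a median of 0.433, and their mean signal did not overlap between the diets (6.11 to 6.42 against 6.50 to 6.80). In knockout 8 of 11 were higher, with a median of 0.402, and none of the 11 passed in either genotype. Their part in the Ccl6 differences was not tested. Ccl2, Ccl7, Ccl8 and Ccl12 were near background. Of these, Ccl7, a further monocyte attractant, read 3.51, 3.63 and 3.43 in wild-type low-fat, 3.69, 3.42 and 3.39 in knockout low-fat, 3.62, 3.53 and 3.91 in wild-type high-fat, and 3.71, 4.01 and 3.997 in knockout high-fat livers. In knockouts the high-fat livers lay above the low-fat livers by 0.41 (SE 0.129, limma's adjusted p = 0.156 in the fit of all genes), within the range of background signals.

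**Figure D3:**
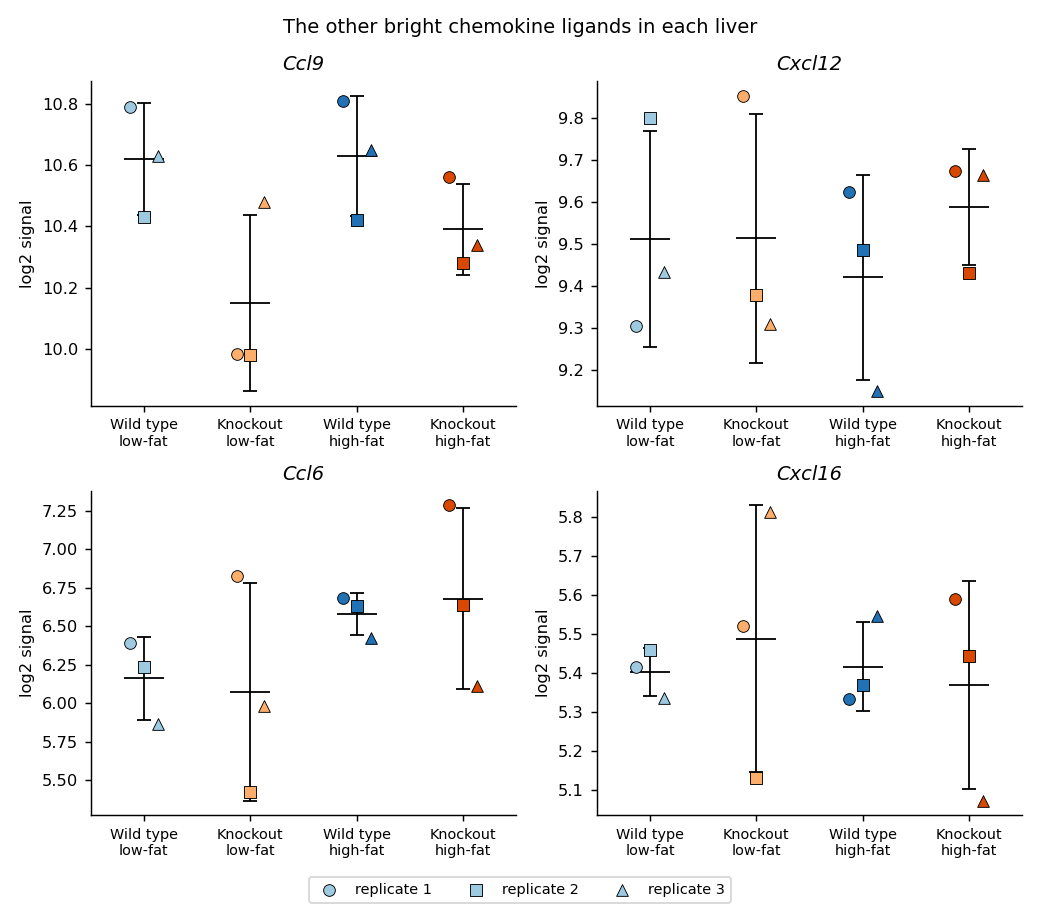
Log2 signal (vertical axes, each with its own range) of Ccl9, Cxcl12, Ccl6 and Cxcl16 in each of the 12 livers by group, with the group mean and SD as bars. Ccl9 spans 9.98 to 10.81 with 2 of the 3 knockout low-fat livers lowest, and the groups of Cxcl12 and Cxcl16 overlap.

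The CC ligands Ccl3, Ccl4 and Ccl5, which attract T cells and macrophages, were all near background, with signals of at most 3.94, 4.28 and 4.27. Of the eosinophil- and T helper 2-attracting ligands, Ccl24 and Ccl17 were above background and Ccl1, Ccl11 and Ccl22 were not. Ccl24, an eotaxin acting on Ccr3, read 4.06, 4.21 and 4.21 in wild-type low-fat, 4.19, 4.07 and 3.86 in knockout low-fat, 4.12, 4.12 and 3.98 in wild-type high-fat, and 4.39, 4.34 and 4.04 in knockout high-fat livers. Knockout high-fat replicates 1 and 2 were the highest, replicate 3 lay among the other groups, and the diet difference in knockouts was 0.22 (SE 0.123, limma's adjusted p = 0.390). Ccl22, which binds Ccr4, had signals of 4.06, 3.92 and 4.15 in wild-type low-fat, 3.67, 3.89 and 4.07 in knockout low-fat, 3.72, 3.74 and 3.93 in wild-type high-fat, and 3.71, 3.74 and 3.73 in knockout high-fat livers. In wild type its low-fat and high-fat livers overlapped, and the diet difference was -0.25 (SE 0.115, limma's adjusted p = 0.652 in the fit of all genes).

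Among the lymphoid homing and epithelial CC ligands, Ccl19, Ccl25, Ccl27a and Ccl21b were above background and Ccl20 and Ccl28 were not. Ccl19, which guides T cells and dendritic cells through Ccr7, read 4.87, 4.83 and 4.92 in wild-type low-fat, 5.28, 4.80 and 5.30 in knockout low-fat, 4.99, 4.94 and 4.86 in wild-type high-fat, and 5.03, 4.93 and 5.05 in knockout high-fat livers. Knockout low-fat replicates 1 and 3 stood above the other 10 livers, and replicate 2 was the lowest of all 12. The genotypes differed by 0.25 on the low-fat diet (SE 0.130, limma's adjusted p = 0.613). Ccl21b, a further ligand of Ccr7, read 4.14, 4.03 and 3.96 in wild-type low-fat, 4.16, 4.33 and 3.94 in knockout low-fat, 4.18, 4.47 and 4.14 in wild-type high-fat, and 4.11, 4.40 and 3.95 in knockout high-fat livers. The groups overlapped, and its diet difference in wild type was 0.22 (SE 0.144, limma's adjusted p = 0.728). Ccl27a, known from skin, ranged from 4.16 to 4.65. Both have near-identical copies in the mouse genome whose RNA may reach the same probes, so their values are uncertain. The 2 dimmest of the 4 Ccl27a probe sets gave 0.78 and 0.57 for knockout minus wild type on the high-fat diet where the brightest gave -0.14. Both values rested on knockout high-fat replicate 1, at 5.44 and 4.66 in these probe sets, and without it they were 0.26 and 0.11.

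Xcl1, a ligand of Xcr1 made by NK cells and T cells, read 4.93, 4.82 and 5.11 in wild-type low-fat, 4.85, 5.18 and 4.72 in knockout low-fat, 4.69, 5.17 and 5.12 in wild-type high-fat, and 4.69, 4.88 and 4.47 in knockout high-fat livers. It was -0.32 in knockout minus wild type on the high-fat diet (SE 0.165, limma's adjusted p = 0.996), and the groups overlapped. Cx3cl1, a membrane-bound ligand of Cx3cr1, read 4.54, 4.91 and 4.41 in wild-type low-fat, 5.12, 4.66 and 4.90 in knockout low-fat, 4.89, 4.81 and 4.58 in wild-type high-fat, and 4.68, 4.76 and 4.94 in knockout high-fat livers. Its genotype difference on the low-fat diet was 0.27 (SE 0.157, limma's adjusted p = 0.665), again with overlap.

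Of the 15 receptors, 13 were near background, which included Ccr1 and Ccr2, the receptors of the monocyte attractants, and Cx3cr1, Cxcr3 and Cxcr6. Ccr9, the receptor of Ccl25, read 3.94, 4.15 and 4.12 in wild-type low-fat, 4.18, 4.88 and 4.06 in knockout low-fat, 4.16, 4.23 and 4.11 in wild-type high-fat, and 4.19, 4.27 and 4.14 in knockout high-fat livers. A single liver, knockout low-fat replicate 2, stood apart, and the genotype difference on the low-fat diet was 0.31 with it (SE 0.173, limma's adjusted p = 0.657) and 0.05 without it (adjusted p = 0.943). Cxcr2, the receptor of Cxcl1 on neutrophils, ranged from 3.90 to 4.51, with the highest value also in knockout low-fat replicate 2. Group means of the 13 other receptors lay between 2.72 and 4.05.

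Over all 18 members above background, none passed at an adjusted p of 0.05 in any of the 7 comparisons made with limma. For knockout minus wild type, 0 of 18 passed on the low-fat diet, where 0.00975% of all tested genes did, 0 of 18 on the high-fat diet (0.00975%) and 0 of 18 as the mean of both diets (0.0195%). For high-fat minus low-fat diet, 0 of 18 passed in wild type (0.175% of tested genes), in knockout (3.03%) and as the mean of both genotypes (4.56%). For the difference between the diet effects, 0 of 18 passed, and so did 0% of tested genes. At an unadjusted p of 0.05, the members counted 1, 2 and 2 for the genotype comparisons in this order, 0, 2 and 1 for the diet comparisons and 2 for the difference between them. The matching shares of all tested genes were 8.72%, 4.46% and 7.26%, then 8.82%, 18.3% and 19.7%, and 5.70%.

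Members did not move together. The median difference of the 18 between genotypes was 0.0179 (low-fat) and 0.0170 (high-fat), and between diets it was 0.0121 in wild type and -0.0249 in knockout. The medians of all tested genes were 0.00494, 0.00403, -0.000938 and -0.00814. On the high-fat diet 10 of 18 members were higher in knockout (51.5% of all tested genes were) and 8 lower, and their differences ran from -0.32 to 2.36. In the diet comparison of knockouts 8 were higher (48.4% of all tested genes were) and 10 lower, with differences from -0.36 to 1.84.

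**Figure D4:**
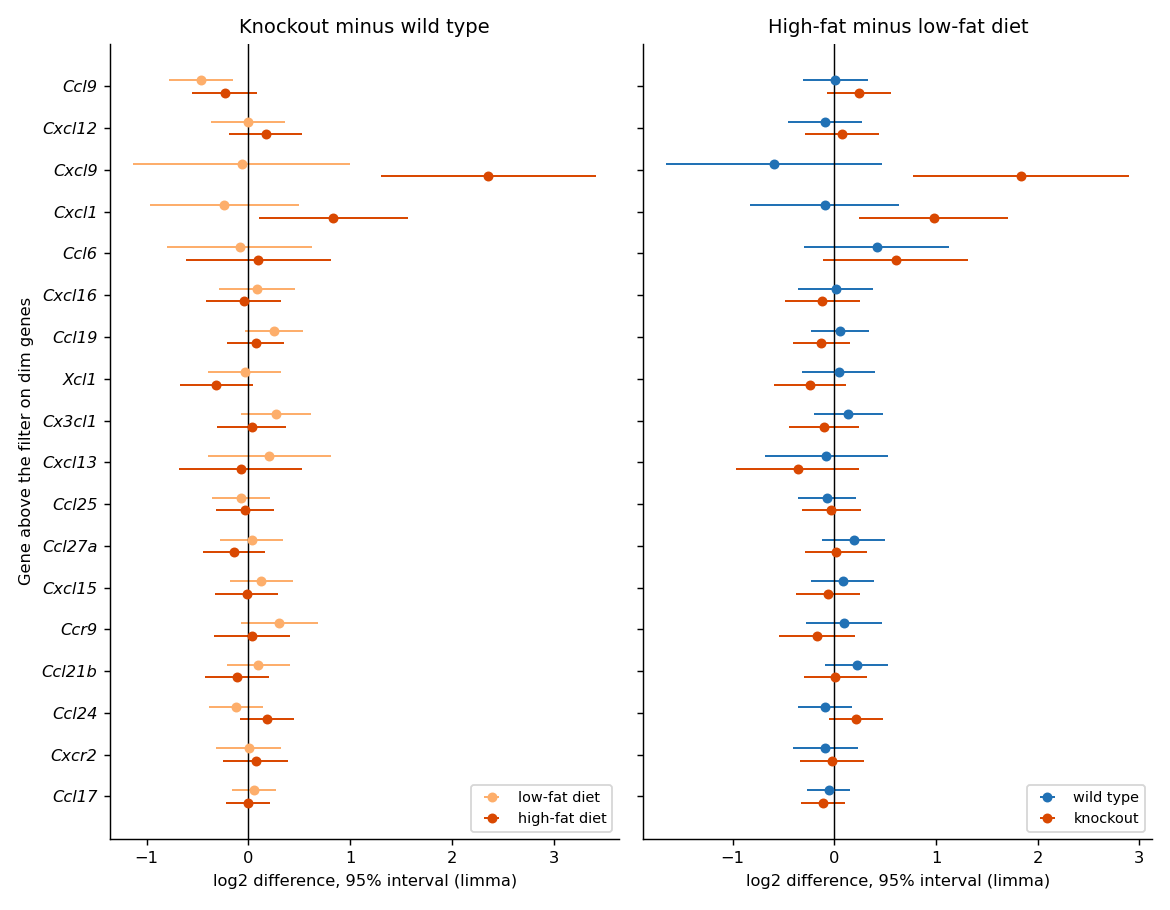
Log2 difference (horizontal axes) with its 95% interval from limma for the 18 genes above background, for the genotypes on each diet (left, knockout minus wild type) and for the diets in each genotype (right, high-fat minus low-fat). Cxcl9 on the high-fat diet (2.36) and in knockouts (1.84) lies furthest from 0, followed by Cxcl1 (0.84 and 0.98), and most other intervals include 0.

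Groups without overlap were counted over all 49 members, dim ones included. In knockout against wild type on the high-fat diet, 6 members were higher in all 3 knockouts than in all 3 wild types (Cxcl9, Cxcl10, Cxcl11, Cxcl1, Cxcr3 and Ccr10), which is 12.2% of members against 6.21% of all genes, and 1 was lower (Ccl28) against 4.96%. On the low-fat diet 1 was higher (Ccl20) against 7.59% and 2 were lower (Ccr6 and Cxcr3) against 4.22%. For the diet in knockouts, 6 were higher (Cxcl9, Cxcl10, Cxcl11, Cxcl1, Cxcr3 and Ccl7) against 8.50% of all genes and 4 were lower (Ccl12, Ccl17, Ccl20 and Ccr3) against 8.76%. For the diet in wild type, 3 were higher (Ccl6, Ccl28 and Cxcl14) against 7.70% and 1 was lower (Cxcr3) against 6.28%. The 3 members above the other 9 livers in all knockout high-fat livers were 6.12% of members, against 1.18% of all genes, a comparison chosen after their values were seen. The comparisons share groups, so a gene high in knockout high-fat livers enters several of these counts.

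Genes around the chemokines in the pathway were described from lists. Of the factors that act upstream through interferon-gamma and NF-kB, 8 of 10 with a probe set were tested. Ifngr2, a chain of the interferon-gamma receptor, rose with the high-fat diet in knockouts by 0.76 (SE 0.144, limma's adjusted p = 0.0174), and none of the other 7 passed. In wild type Ifngr2 read 5.73, 6.17 and 5.82 on the low-fat and 6.14, 6.19 and 6.18 on the high-fat diet. For the mean diet effect of both genotypes 1 of the 8 passed as higher. Irf1, a transcription factor induced by interferon-gamma, was 0.48 higher in knockout than in wild-type high-fat livers (SE 0.185, limma's adjusted p = 0.996) and 0.56 higher on the high-fat diet in knockouts (SE 0.185, adjusted p = 0.122). Wild-type low-fat replicate 2 read 8.007 for Irf1, above the knockout high-fat livers (7.861 to 7.993). The 8 factors did not rise as a list. In knockout against wild type on the high-fat diet 4 of 8 were higher (median 0.0737), and for the diet in knockouts 3 of 8 were (median -0.00979). Ifng and Tnf, the genes of the cytokines themselves, were near background. Mif, a chemoattractant outside the chemokine families, fell with the high-fat diet in knockouts by 0.255 (SE 0.0593, limma's adjusted p = 0.0391), and Rarres2, the gene of chemerin, was 0.163 higher (SE 0.0497, adjusted p = 0.0998). The fall of Mif was not particular to knockouts. In wild type it read 10.93, 10.98 and 11.07 on the low-fat and 10.87, 10.82 and 10.7 on the high-fat diet. Of the 2 genes tested in this list, 1 passed as lower for the mean of both genotypes.

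Of 5 atypical and decoy receptors with a probe set, which bind chemokines without the usual signal, only Ackr2 was tested, and it did not pass in any of the 7 comparisons (-0.28 in knockout minus wild type on the high-fat diet, SE 0.230). Of 27 genes of receptor signalling and desensitisation, 19 were tested and 0 passed in any comparison. The largest genotype difference among them on the high-fat diet was in Elmo1, which acts with Dock proteins on Rac (0.34, SE 0.136, limma's adjusted p = 0.996). Of 9 chemokine-processing proteases, 6 were tested and 0 passed. Mmp12, the macrophage elastase, was under the filter and so not among the 6 tested, and whether it passes is not given here. In the fit of all genes it was 0.71 higher in knockout than in wild-type high-fat livers (SE 0.130). On the high-fat diet in knockouts it was 0.75 higher (SE 0.130). It was picked from the 9 after its values were seen, and its signals ran from 3.06 to 4.34, near background.

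Markers of the cells that make or answer to chemokines were followed in each liver. In a liver extract, more cells of a type and more RNA per cell cannot be told apart. Macrophage and Kupffer cell markers, 11 of 12 of them above background with Timd4 near it, had a mean log2 signal of 6.11 to 6.42 in wild-type low-fat, 5.02 to 6.82 in knockout low-fat, 6.50 to 6.80 in wild-type high-fat and 5.60 to 7.01 in knockout high-fat livers. In the 3 knockout high-fat livers they were 7.01, 6.61 and 5.60, the same order as Cxcl9 (9.19, 7.98 and 6.85) and Cxcl10 (5.06, 4.80 and 4.27). Cxcl1 did not have this order there, being highest in replicate 3 (7.42). In the knockout low-fat livers replicate 2 was lowest for the markers (5.02), for Cxcl9 (5.31), for Cxcl11 (3.33) and for Ccl6 (5.42), while Cxcl10 (3.35) and Cxcl1 (5.63) were lowest in replicate 1. In both wild-type groups replicate 2 was highest for the markers (6.42 when fed low-fat, 6.80 when fed high-fat) and lowest for Cxcl9 (5.95 and 5.34). Knockout and wild-type high-fat livers overlapped in these markers, of which 3 of 11 were higher in knockout and none passed. The part of macrophage number in the chemokine differences was not tested.

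**Figure D5:**
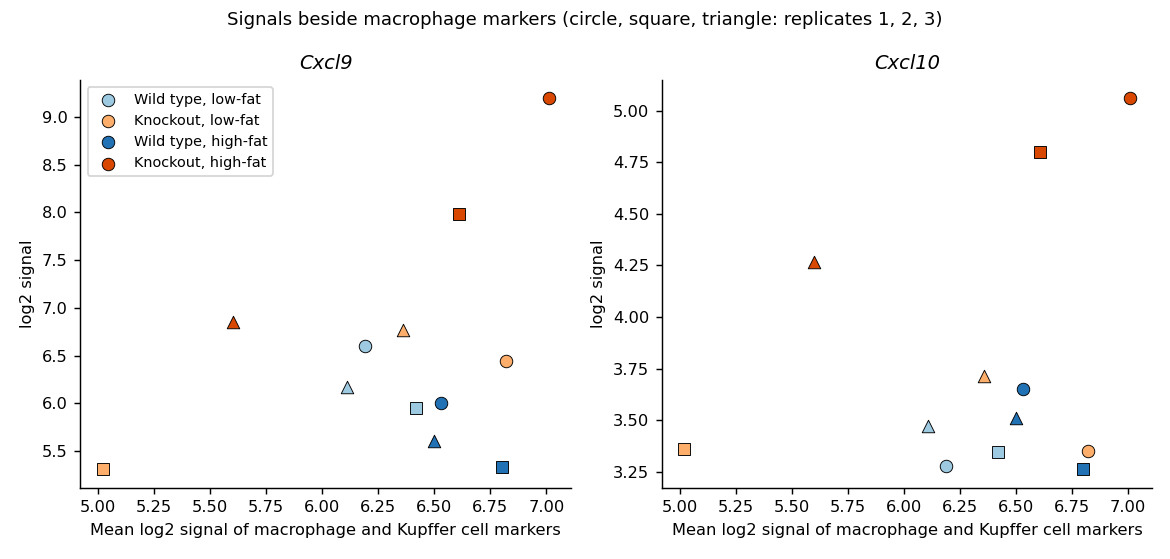
Log2 signal of Cxcl9 (left) and Cxcl10 (right) against the mean log2 signal of 11 macrophage and Kupffer cell markers in each of the 12 livers, with colours for groups and shapes for replicates 1 to 3. Knockout high-fat livers run from 5.60 to 7.01 in the markers, and all 3 lie above the other 9 livers in both genes.

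Sinusoidal endothelial markers, 11 of 12 above background with Lyve1 near it, had a mean log2 signal of 6.66 to 6.98 in wild-type low-fat, 6.12 to 7.09 in knockout low-fat, 6.64 to 6.91 in wild-type high-fat and 5.98 to 6.80 in knockout high-fat livers. Of the 11, 0 were higher in knockout on the high-fat diet (median -0.495) and none passed, and the livers of these groups overlapped. On the low-fat diet 0 of 11 were higher as well (median -0.189). T cell markers, the cells that Cxcl9 and Cxcl10 attract, had 3 of 9 genes above background (Cd3e, Cd4 and Cd8a), and their mean signal was 4.98 to 5.17 in wild-type low-fat, 5.12 to 5.20 in knockout low-fat, 5.11 to 5.26 in wild-type high-fat and 5.17 to 5.35 in knockout high-fat livers. All 3 were higher in knockout on the high-fat diet, as were 51.5% of all tested genes, with a median of 0.0536. On the low-fat diet 2 of the 3 were higher, with a larger median of 0.0884. Cd3d and Cd3g were near background, as were 7 of 8 NK cell markers, Ncr1, Gzma, Gzmb and Prf1 among them. The 1 NK cell marker tested was lower in knockout on the high-fat diet (-0.0654). Neutrophil markers, the cells that Cxcl1 attracts, had 4 of 6 genes above background and a mean signal of 4.64 to 4.74 in wild-type high-fat and 4.66 to 4.81 in knockout high-fat livers. Of these 4, 3 were higher in knockout on the high-fat diet, with a median of 0.0512. On the low-fat diet 3 of 4 were higher as well, with a larger median of 0.084. None of the T cell, NK cell or neutrophil markers tested passed in any comparison, and the part of these and of the endothelial markers in the chemokine differences was not tested.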

How the data were processed

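Total RNA of 12 liver extracts was biotin-labelled and read on Affymetrix high-throughput PM arrays, per the labels, which do not say that each extract is a separate mouse. The authors deposited log2 signals for 45141 probe sets, computed by RMA (per the submitters' processing notes). The sources used here do not give the software version. RMA gives the arrays a shared signal distribution and compresses changes of very dim and very bright probe sets. Of the probe sets, 104 were controls, 28898 had 1 gene, 551 several and 15588 none, by the platform's annotation, and only those with 1 gene were used. The brightest probe set stood for each gene. Group means were fitted over all 12 arrays in R 4.3.3 with limma 3.58.1 (variance trend, 8 residual degrees of freedom) on the 10258 genes left after the dimmest 40% were removed. Adjusted p-values are Benjamini-Hochberg over all genes tested in a comparison, with no correction across the 7 comparisons. Members under the filter come from the same fit of all 17097 genes. With 3 arrays against 3 an exact permutation test cannot go below p = 0.1, so none was run. Values after ± are SD and SE are limma's. The scripts were tested on simulated data. The number of arrays limits the precision. The labels do not tie extracts of the same number together, so the main test has no replicate block.

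The members and all gene lists were chosen with earlier results of these data known. Members named with a value in every array were those among the 8 largest genotype or diet differences above the filter, up to 6 of the brightest, the ligands of Cxcr3 and Cxcr3, and the 4 with the widest gaps under the filter, and others are given by range. Of the pathway lists and cell markers, up to 4 genes by size were named. Mmp12 and the list of genes above the other 9 livers were chosen after their values were seen. Symbols were checked through gene identifiers in RefSeq (28689 found, 0 changed). Cxcl11 and 11 other members had no entry in the promoter table. Some genes are not reported here.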

Additional observations from a re-analysis of the deposited data

Results flagged for a closer look

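Cxcr3 differed in opposite directions without overlap between groups. Knockout minus wild type was -0.21 on the low-fat diet, where all 3 knockout livers lay below all wild types, and 0.24 on the high-fat diet, where all 3 lay above. High-fat minus low-fat diet was accordingly -0.15 in wild type and 0.30 in knockout, from the same 12 livers. Among all 17097 genes, 44 (0.257%) showed the first pattern and 34 (0.199%) the second. Limma's test of the difference between the diet effects gave 0.45 (SE 0.129, adjusted p = 0.866), which did not pass. All Cxcr3 signals were between 2.94 and 3.49, at the level of olfactory receptor genes.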

How the results depend on the processing

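Over 24 alternative settings for each comparison within a diet or a genotype and 23 for each of the other 3, which were not run on only their own groups, 0 members passed except as follows. For knockout minus wild type on the high-fat diet, 1 passed (Cxcl9) without knockout low-fat replicate 2 and knockout high-fat replicate 3 together. For the diet in knockouts, 1 passed with no filter on dim genes (Cxcl10), 1 with the replicate number as a block (Cxcl9, adjusted p = 0.0423), 1 without those 2 arrays (Cxcl9, 1.98, adjusted p = 0.0419), 1 at an adjusted p of 0.10 (Cxcl9), and 0 to 2 when each array was left out in turn. For the mean diet effect, 1 passed with no filter (Cxcl10). The same-numbered samples had correlations of -0.166 to 0.381 and the differently numbered ones of -0.454 to 0.249. With 3 arrays a group these values cannot settle whether the numbers pair the samples. The block left 310 genes passing for the diet in knockouts against 311. Cxcl16 for the diet in knockouts was -0.12 and ranged from -0.30 to 0.04 when each array was left out, turning to 0.03 without knockout high-fat replicate 3 and 0.04 without knockout low-fat replicate 3. Cxcl10 for the genotypes on the high-fat diet also passed with robust variance and no filter (1.23, adjusted p = 0.0285), and for the diet in knockouts it passed in all 18 settings without a filter (1.06 to 1.45). Cxcl9 kept its direction throughout, at 1.77 to 2.94 between genotypes on the high-fat diet (adjusted p = 0.0149 to 1) and 1.24 to 2.41 between diets in knockouts (adjusted p = 0.0238 to 0.187). By the reading from olfactory receptor genes, 18 members were near background in all 4 groups, against 31 under the filter. The number of all genes passing ranged from 0 to 4, 0 to 3 and 0 to 3 for the genotype comparisons, 5 to 109, 68 to 655 and 258 to 921 for the diet comparisons, and 0 to 1 for the difference between them. The settings added after seeing the data were those that combined no filter with another choice and those that left out arrays for single probe sets. The setting without knockout low-fat replicate 2 and knockout high-fat replicate 3 together also depends on these data. Those 2 livers were the lowest in macrophage markers here, so a pass in it is no independent support. The 60% filter gave no value for members under it. The causes of these shifts were not tested. With 3 arrays a group and signals at background for 31 members, changes in dim genes may be missed.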
